A study of Homo sapiens with 12 samples.

Results

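The miR-320 family is a set of human microRNAs (miRNAs) with near-identical sequences, of which miR-320a is a textbook example of a miRNA made without DROSHA. The members were the names hsa-miR-320a, hsa-miR-320b, hsa-miR-320c, hsa-miR-320d and hsa-miR-320e, written below without the species prefix, 5 of the 1971 miRNA names that the count tables list for either cell line. All 5 are listed in all 12 libraries. A further 3 names (miR-3200-3p, miR-3200-5p and miR-3202) begin with the same characters but belong to other miRNAs and were left out. The small RNA libraries were made by AQ-seq, which is built to reduce ligation bias, from HCT116 cells, which come from a human colorectal carcinoma, and from HEK293T cells, which come from human embryonic kidney. In each line cells were rescued with DICER ΔdsRBD, with DICER AA or with DICER WT, with 2 libraries per group. The labels do not say what the AA change is, how the rescue was made, whether the cells of a group are a clone or a pool, or whether its 2 libraries are of separate cultures. The p-values therefore measure only the spread between the libraries at hand. All libraries were made from 100 µg of total RNA per the labels.

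Most miRNA precursors are cut out of a long transcript by DROSHA in the nucleus, and the resulting hairpin is then cut by DICER into a duplex, of which 1 strand is loaded into an Argonaute protein. The precursor of miR-320a is known to skip the first step, because its 5′ end is the start of transcription itself and carries a cap, and exportin 1 brings it to the cytoplasm. DICER then removes the loop, and the strand on the 3′ side becomes the mature miRNA. The double-stranded RNA-binding domain (dsRBD), which lies at the C-terminal end of DICER, contacts the hairpin near the cut site. Whether miR-320b, miR-320c, miR-320d and miR-320e are made in the same way as miR-320a is stated by none of the sources used here.

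The mature sequences show how closely the members resemble each other. They are from RefSeq (GRCh38.p14), 5′ to 3′, with the seed (bases 2 to 8, which pair with target mRNAs) in capitals, and 4 of the 5 members matched an entry. The member without one was miR-320a, so its sequence is not compared here.
miR-320b: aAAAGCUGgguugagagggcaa
miR-320c: aAAAGCUGgguugagagggu
miR-320d: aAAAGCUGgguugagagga
miR-320e: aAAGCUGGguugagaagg
Among the members compared, miR-320b, miR-320c and miR-320d carry 1 seed, AAAGCUG, which miR-4429 also has in the RefSeq table. Whether miR-320a shares this seed, or reads with these names, cannot be read from these entries. The lengths are 22 nucleotides for miR-320b, 20 for miR-320c, 19 for miR-320d and 18 for miR-320e. miR-320b and miR-320c share their first 19 bases, and miR-320d shares its first 18 with each of them. Without its last base, miR-320d is contained in both miR-320b and miR-320c, so a read trimmed at its 3′ end can match several names. The sources used here do not give how the authors counted such reads. The sum of the members is therefore reported beside the single names. It does not depend on which name of the family received a shared read. It would still depend on the counting if shared reads were dropped or counted under several names. miR-320e starts 1 base further along, with the seed AAGCUGG, which no other name in the table has.

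The hairpins from which DICER releases these miRNAs are alike in layout but lie at scattered loci. A hairpin for each member with an entry is shown from RefSeq (GRCh38.p14), 5′ to 3′, with the mature miRNA in capitals.
MIR320B1: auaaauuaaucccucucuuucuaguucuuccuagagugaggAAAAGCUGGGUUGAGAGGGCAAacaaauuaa
MIR320C1: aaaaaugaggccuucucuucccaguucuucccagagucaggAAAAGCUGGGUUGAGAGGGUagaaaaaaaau
MIR320D1: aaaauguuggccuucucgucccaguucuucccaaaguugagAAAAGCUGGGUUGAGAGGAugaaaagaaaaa
MIR320E: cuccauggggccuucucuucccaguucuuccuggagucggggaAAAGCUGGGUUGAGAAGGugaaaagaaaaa
In all 7 hairpins with an entry the mature miRNA lies on the 3′ side of the loop. Their predicted minimum free energies (ViennaRNA) ran from -33.9 kcal/mol for MIR320B2 to -23.0 kcal/mol for MIR320D1, with 15 to 17 bases of the mature miRNA paired. MIR320B1 (chr1:116671746-116671817, plus strand) is intergenic and MIR320B2 (chr1:224257040-224257110, minus strand) lies in an intron of NVL on the same strand. MIR320C1 (chr18:21683518-21683589) and MIR320C2 (chr18:24321675-24321746), both on the plus strand, lie in introns of ABHD3 and OSBPL1A, genes of the opposite strand. MIR320D1 (chr13:40727816-40727887, minus strand) and MIR320D2 (chrX:140926160-140926231, minus strand) are intergenic. MIR320E (chr19:46709282-46709354, minus strand) lies in an intron of PRKD2 on the same strand. Gene positions are from GENCODE 29.

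The libraries held 824987 to 4498886 miRNA reads in HCT116 and 1059778 to 3552613 in HEK293T, with the fewest in the ΔdsRBD libraries of each line. Another 30 names are spike-in RNAs, which took 0.272% to 1.55% of the reads in HCT116 and 1.20% to 3.54% in HEK293T. Levels are given as CPM, counts scaled to library size, with TMM factors, which sets the bulk of miRNAs equal between libraries, so that a change is one relative to the typical miRNA. Poisson and Wilson intervals and floors cover counting error only, whereas the intervals from edgeR also include the spread between libraries. Of the miRNAs chosen to check the labelled lines, the 4 of the embryonic kidney list summed to 128791 to 347507 CPM without TMM factors in HEK293T and 14993 to 35741 in HCT116. The 6 of the colon epithelium list summed to 7530 to 8716 in HEK293T and 38957 to 55522 in HCT116. That list went with the label through miR-31-5p and to a lesser degree miR-200c-3p, whereas miR-192-5p, miR-194-5p and miR-215-5p were lower in HCT116 than in HEK293T. The ranges of miR-141-3p overlapped between the lines. Blood markers summed to at most 20.8 such CPM in HEK293T and 423 in HCT116, mostly miR-142-3p. Neuron markers summed to 3480 to 6638 in HEK293T and 1780 to 2783 in HCT116. Muscle markers reached at most 6.76 and 3.70, and the liver marker at most 2.78 and 17.0, in HEK293T and HCT116.

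miR-320a, from the MIR320A gene, made up nearly all of the family and was among the abundant miRNAs of both lines. MIR320A is intergenic on chromosome 8, 67 bases from POLR3D, a gene of the opposite strand that encodes a subunit of RNA polymerase III. Over the 12 libraries it held 90.4% to 93.8% of the family's reads (median 91.8%) and ranked from 18th to 39th of all names by reads. miR-320b held 4.67% to 7.19%, miR-320c 1.07% to 1.81% and miR-320d 0.489% to 0.827%. miR-320e was near the limit of detection. It had 0 and 1 reads in the HCT116 ΔdsRBD libraries, 2 and 2 in HCT116 AA, 5 and 2 in HCT116 WT, 6 and 4 in HEK293T ΔdsRBD, 6 and 0 in HEK293T AA and 3 and 4 in HEK293T WT, 35 reads in all. A count of 0 allows up to 3 reads, which is 3.64 CPM without TMM factors in HCT116 ΔdsRBD replicate 1 and 2.08 in HEK293T AA replicate 2. In HEK293T miR-320e was at 5.66 and 3.26 such CPM with ΔdsRBD and at 1.07 and 1.13 with WT, so both ΔdsRBD libraries lay above both WT libraries, unlike those of the other members. Over the summed reads of each group it was at 4.37 CPM (exact Poisson 95% interval 2.10 to 8.04, 10 reads) with ΔdsRBD and 1.10 CPM (0.444 to 2.27, 7 reads) with WT, and these intervals overlap. Per 1000 spike-in reads the groups overlapped, at 0.165 and 0.0888 with ΔdsRBD and 0.0888 and 0.0911 with WT. This difference was not tested, since miR-320e did not pass the filter on low counts. The other 4 of the 5 members were tested in every comparison.

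As a share of all miRNA reads, which uses no scaling factor, the family fell into a high and a low range. It took 0.546% and 0.585% in HCT116 ΔdsRBD, 0.807% and 0.926% in HCT116 AA and 0.980% and 0.757% in HCT116 WT. In HEK293T it took 0.539% and 0.588% with ΔdsRBD, 0.524% and 0.526% with AA and 0.864% and 1.28% with WT. The 95% Wilson intervals of these shares reached at most 0.0159 percentage points to either side. In HCT116 the AA and WT libraries overlapped and the ΔdsRBD libraries lay below both. In HEK293T the ΔdsRBD and AA libraries lay below both WT libraries, and AA lay just under ΔdsRBD. The 2 HEK293T WT libraries stood apart from each other by 1.56-fold in CPM, more than the 2 libraries of any other group (1.01-fold to 1.20-fold), and the edgeR results for the summed family that rest on them are given without each of them as well.

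**Figure D1:**
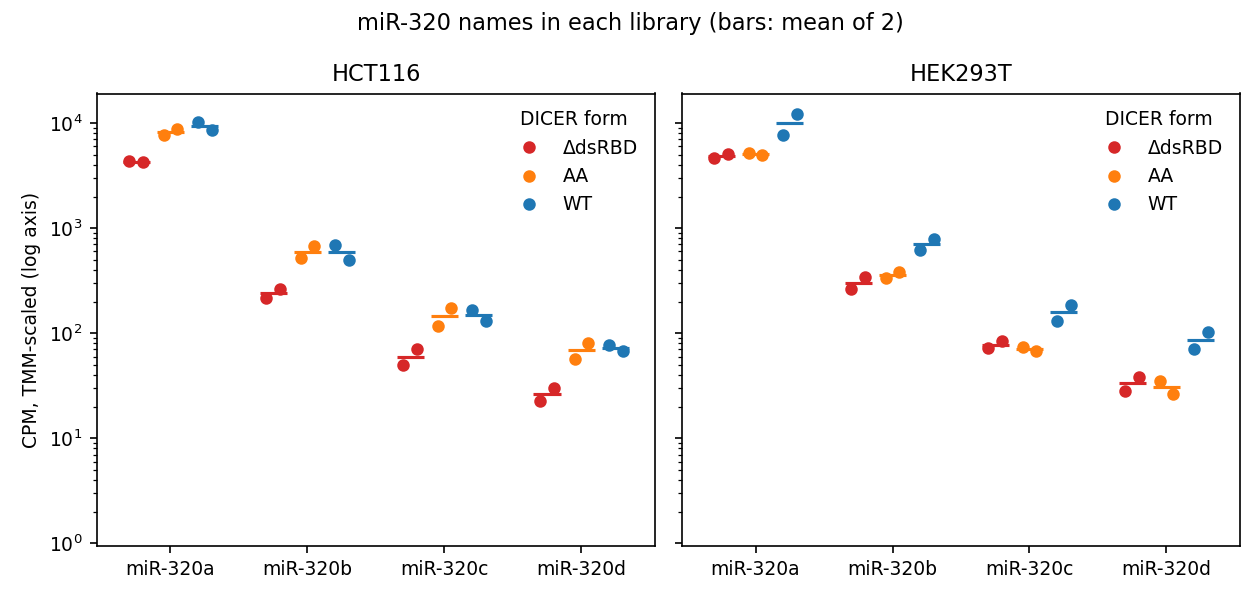
TMM-scaled CPM of miR-320a, miR-320b, miR-320c and miR-320d in each library, on a log axis, with HCT116 on the left and HEK293T on the right. Points are libraries and bars the mean of 2. With ΔdsRBD (red) all 4 names lie below WT (blue) in both lines, while AA (orange) overlaps the WT libraries in HCT116 and lies below them in HEK293T.

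With ΔdsRBD in place of WT, miR-320a, miR-320b, miR-320c and miR-320d fell in HCT116, by 2.18-fold for miR-320a to 2.68-fold for miR-320d. miR-320a was at 4357 and 4221 CPM with ΔdsRBD and at 10161 and 8552 CPM with WT. Both ΔdsRBD libraries lay below both WT libraries, by close to the same factor each. miR-320b was at 217 and 266 CPM with ΔdsRBD and at 695 and 493 CPM with WT. miR-320c was at 49.5 and 70.1 CPM with ΔdsRBD and at 166 and 130 CPM with WT. miR-320d was at 22.7 and 30.1 CPM with ΔdsRBD and at 77.0 and 68.3 CPM with WT, on 22 and 52 reads in the ΔdsRBD libraries. The groups did not overlap for any of the 4 names, as was the case for 82.5% of all names tested. The log2 fold changes were -1.13 ± 0.13 (SE) for miR-320a, -1.29 ± 0.20 for miR-320b, -1.28 ± 0.24 for miR-320c and -1.42 ± 0.24 for miR-320d. All 4 passed edgeR's quasi-likelihood test with Benjamini-Hochberg adjustment at 0.05 (adjusted p from 2.0e-05 to 9.9e-04). Of the 795 names tested, 62.1% were called in either direction and 34.1% were called lower, so being called is common here, and the 4 names are not separate evidence where they share reads. They stood between percentiles 26.2 and 28.9 of all log2 fold changes. The summed family was at 4617 ± 40.9 CPM with ΔdsRBD and 10172 ± 1313 CPM with WT (SD, n = 2 each). This was a log2 fold change of -1.15 ± 0.13, or 2.22-fold lower (edgeR adjusted p = 2.3e-05). Its size depended on the scaling, at -0.62 with library totals, -0.85 with upper-quartile factors and -2.92 with spike-in size factors, all called. In these bulk libraries, fewer cells that make a miRNA and less of it per cell cannot be told apart, and no source used here gives the amount of each DICER form.

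In HEK293T the same 4 names fell with ΔdsRBD, by nearly the same factor on the TMM scale. miR-320a was at 4674 and 5048 CPM with ΔdsRBD and at 7729 and 12203 CPM with WT. miR-320b was at 264 and 344 CPM with ΔdsRBD and at 615 and 795 CPM with WT. The ΔdsRBD libraries lay closer to each other than the WT libraries did, and no ΔdsRBD library reached a WT library. miR-320c was at 72.4 and 83.4 CPM with ΔdsRBD and at 130 and 186 CPM with WT. miR-320d was at 28.2 and 38.3 CPM with ΔdsRBD and at 70.5 and 103 CPM with WT. All 4 names had no overlap, against 89.0% of all names, and all 4 were called lower, against 39.6% of the 626 names tested (75.6% called in either direction). Their log2 fold changes were -1.04 ± 0.21 (SE), -1.21 ± 0.20, -1.02 ± 0.24 and -1.38 ± 0.30 in the order a to d, with edgeR adjusted p from 2.6e-04 to 0.0026. These values stood between percentiles 30.9 and 37.6 of all log2 fold changes. The summed family was at 5280 ± 334 CPM with ΔdsRBD and 10917 ± 3354 CPM with WT (SD, n = 2 each). The log2 fold change was -1.10 ± 0.20 (adjusted p = 6.1e-04). It was -0.63 with upper-quartile factors and -2.50 with spike-in size factors. Without WT replicate 1 it was -1.42 and without WT replicate 2 -0.81, the ends of the range over single libraries left out. The family and its 4 names remained called lower under all 14 alternatives run in each line.

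No change of the family with AA was detectable in HCT116 on the TMM scale. With AA miR-320a was at 7684 and 8725 CPM, against 10161 and 8552 CPM with WT, and miR-320b at 521 and 669 CPM, against 695 and 493 CPM with WT. The libraries of the 2 groups overlapped for all 4 names, whereas 53.8% of all names had no overlap. The log2 fold changes were -0.19 ± 0.12 (SE) for miR-320a, 0.00 ± 0.19 for miR-320b, -0.02 ± 0.22 for miR-320c and -0.08 ± 0.20 for miR-320d. None of the 4 passed edgeR's test, and none had an unadjusted p under 0.05, while 7.42% of the 795 names were called and 20.3% had such a p. For the summed family, at 9016 ± 897 CPM with AA and 10172 ± 1313 CPM with WT (SD, n = 2 each), the log2 fold change was -0.18 with a 95% interval from -0.46 to 0.10, so a fall as large as the one with ΔdsRBD lies outside the interval. Set directly against ΔdsRBD, AA held more of all 4 names in HCT116, without overlap (78.4% of all names), and all 4 were called higher, against 29.6% of the names tested (56.5% called in either direction). The log2 fold changes of AA over ΔdsRBD were 0.94 ± 0.13 for miR-320a, 1.30 ± 0.20 for miR-320b, 1.26 ± 0.25 for miR-320c and 1.34 ± 0.24 for miR-320d, and 0.97 ± 0.13 for the sum (edgeR adjusted p = 1.0e-04). With library totals the sum was at 0.62 and with spike-in size factors at 2.16, both called.

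In HEK293T, by contrast, the family was lower with AA than with WT, and on the TMM scale near its level with ΔdsRBD. miR-320a was at 5172 and 4951 CPM with AA, against 7729 and 12203 CPM with WT. miR-320b was at 339 and 383 CPM with AA, against 615 and 795 CPM with WT. In both names the AA libraries lay close together and below both WT libraries. miR-320c was at 74.5 and 68.1 CPM with AA, against 130 and 186 CPM with WT. miR-320d was at 35.2 and 26.5 CPM with AA, against 70.5 and 103 CPM with WT. The 4 names had no overlap, against 59.6% of all names, and all 4 were called lower by edgeR, against 15.2% of the 626 names (21.4% in either direction). Their log2 fold changes were -0.98 ± 0.21 (SE) for miR-320a, -0.97 ± 0.20 for miR-320b, -1.14 ± 0.23 for miR-320c and -1.47 ± 0.28 for miR-320d (adjusted p from 0.0050 to 0.0085). These stood between percentiles 5.19 and 13.7 of all names. The sum was at 5526 ± 137 CPM with AA and 10917 ± 3354 CPM with WT (SD, n = 2 each), 1.95-fold lower (log2 fold change -0.96 ± 0.20, adjusted p = 0.0086). The call was lost without AA replicate 2, where the sum's log2 fold change was -0.90 (adjusted p = 0.096), and with upper-quartile scaling (-0.54, adjusted p = 0.094). The sum was called without WT replicate 1 (-1.23, adjusted p = 0.0021), without WT replicate 2 (-0.65, adjusted p = 0.025) and with spike-in size factors (-1.46). AA and ΔdsRBD overlapped for all 4 names in HEK293T and none of the 4 was called between them or had an unadjusted p under 0.05, while 73.0% of all names were called, 74.6% had such a p and 87.7% had no overlap. The log2 fold change of the sum, AA over ΔdsRBD, was 0.14 with a 95% interval from -0.30 to 0.59 and fell to -0.10 with library totals in place of TMM. The comparisons with WT of a line share its WT libraries.

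**Figure D2:**
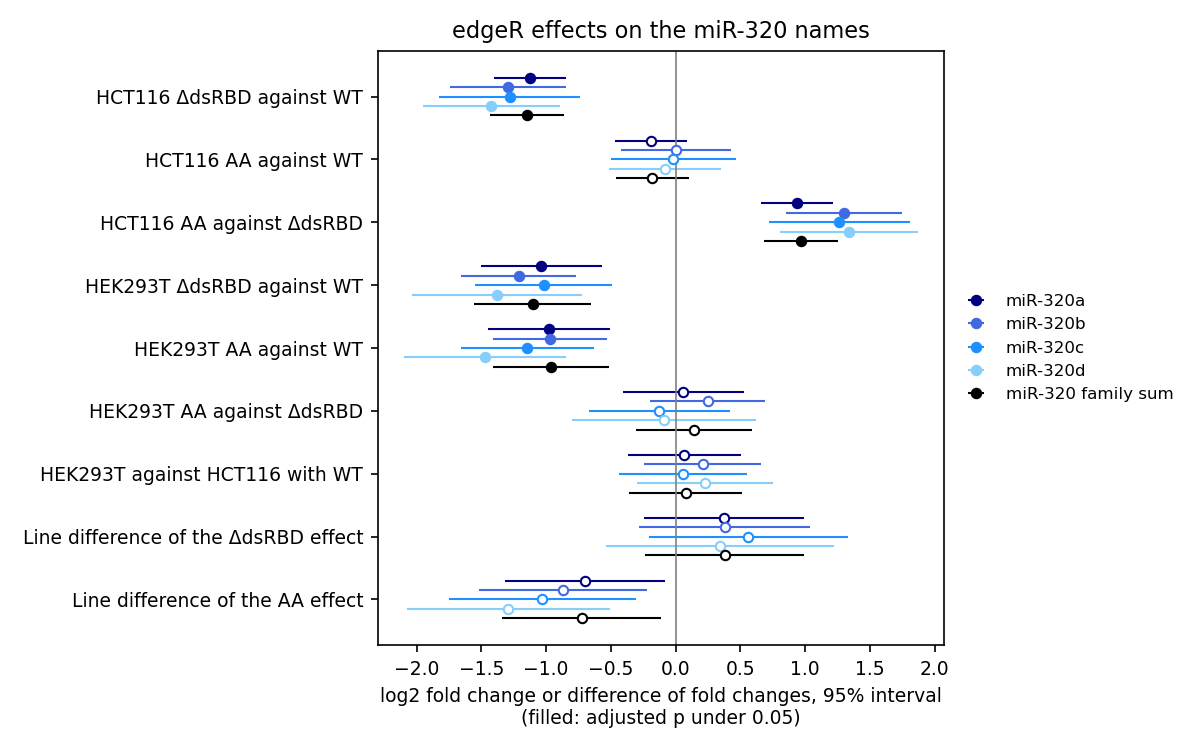
Log2 fold changes of miR-320a, miR-320b, miR-320c, miR-320d and their sum in 9 comparisons, with 95% intervals from edgeR; the first-named group is over the second, and filled points have an adjusted p under 0.05. The sum lies at -1.15 and -1.10 with ΔdsRBD in HCT116 and HEK293T, and with AA at -0.18 in HCT116 and -0.96 in HEK293T.

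Whether the lines differ in these effects was tested over all 12 libraries. For AA the difference, HEK293T minus HCT116, was -0.73 ± 0.30 (SE) on the log2 scale for the sum, with an unadjusted p of 0.022 and an edgeR adjusted p of 0.22. It was -0.70 for miR-320a, -0.87 for miR-320b, -1.03 for miR-320c and -1.29 for miR-320d, with adjusted p from 0.058 to 0.25. So 0 of 4 names were called, against 3.91% of the 844 names, and all 4 had an unadjusted p under 0.05, against 14.5% of names. The difference rested on the HEK293T WT libraries, at -0.27 without replicate 2 (adjusted p = 0.63) and -1.02 without replicate 1 (adjusted p = 0.013). It also passed with library totals (-1.03, adjusted p = 0.012) and with scaling by total spike-in reads (-1.09, adjusted p = 0.048). In 14 of the 17 alternatives the difference of the sum stayed uncalled, spike-in size factors, upper-quartile factors and DESeq2 among them. For ΔdsRBD the difference between the lines was 0.38 ± 0.30 for the sum, with a 95% interval from -0.24 to 0.99 (adjusted p = 0.36). None of the 4 names was called or had an unadjusted p under 0.05, against 34.8% of names called and 41.6% with such a p. That contrast depends on how the lines are scaled together, since the median of all names in it was 0.34 and the separate fits differ by 0.04. Without HEK293T WT replicate 1 it was 0.13 (adjusted p = 0.76), without replicate 2 it was 0.90 (adjusted p = 0.0054), and with library totals -0.31.

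With WT DICER no difference of the family between the 2 lines was detectable on the TMM scale. In the fit over 12 libraries the sum averaged 10674 ± 4403 CPM in HEK293T and 10138 ± 1350 CPM in HCT116 (SD, n = 2 each). The log2 difference was 0.08 with a 95% interval from -0.36 to 0.51 (edgeR adjusted p = 0.74), and it was 0.39 without HEK293T WT replicate 1, -0.38 without replicate 2 and -0.05 with only these 4 libraries. The libraries overlapped for all 4 names, while 87.3% of all names had no overlap. None of the 4 was called or had an unadjusted p under 0.05, in a comparison where 73.2% of the 844 names were called and 75.1% had such a p. The median of all names in this contrast was -0.39 with TMM, below the sum, and 0.04 with upper-quartile factors. With upper-quartile factors the sum was called higher (0.51, adjusted p = 0.021), and against the spike-ins it was called lower in HEK293T (-1.60 with spike-in size factors, adjusted p = 8.9e-08).

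Set against the spike-in RNAs instead of the other miRNAs, the family fell with both DICER forms in both lines, and further with ΔdsRBD. In HCT116 there were 347 and 379 miR-320 reads per 1000 spike-in reads with ΔdsRBD, 1692 and 1904 with AA and 2685 and 2778 with WT. In HEK293T there were 157 and 160 with ΔdsRBD, 308 and 233 with AA and 714 and 1035 with WT. The 3 groups of each line did not overlap on this scale. The means with ΔdsRBD were 13.3% of WT in HCT116 and 18.1% in HEK293T, and those with AA were 65.8% and 30.9%. Each comparison gave a two-sided exact permutation p of 0.333, the lowest value possible with 2 libraries against 2. Taken singly, all 30 spike-ins placed the family lower with ΔdsRBD in both lines and lower with AA in HEK293T, while 28 of 30 did so for AA in HCT116. For AA against ΔdsRBD, 5 of 30 spike-ins placed the family lower with AA in HEK293T and 0 of 30 in HCT116. The 30 spike-ins come from the same 2 libraries per group, so these counts show scatter among spike-ins and are not replicates. In edgeR with spike-in size factors, the family was called lower with AA also in HCT116 (log2 fold change -0.76, adjusted p = 0.023), and called higher with AA than with ΔdsRBD in HEK293T (1.04, adjusted p = 0.0032). On that scale the median of all names moved as well, to -1.78 with ΔdsRBD and -0.63 with AA in HCT116 and to -1.53 and -0.58 in HEK293T, against -0.01, -0.03, -0.07 and -0.11 with TMM. Relative to that median the family stood at -1.14, -0.13, -0.98 and -0.88, a quantity that a change of scaling leaves nearly as it was by construction. How much spike-in RNA each library received, and when, is stated by none of the sources. These ratios are levels per unit of RNA only if each library received the same amount.

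**Figure D3:**
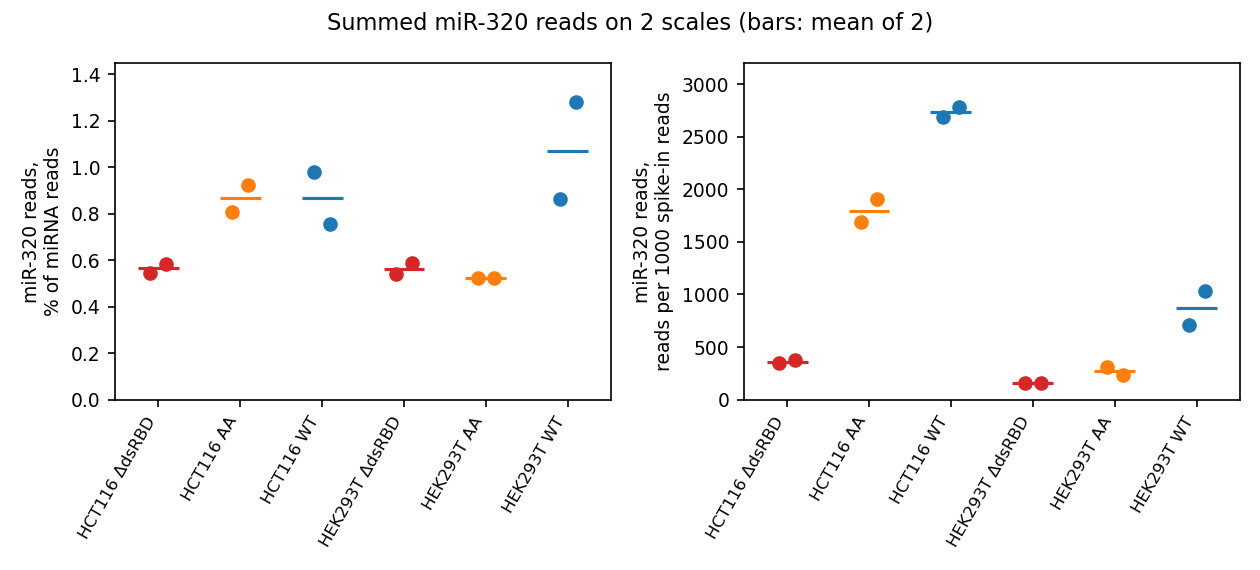
Summed miR-320 reads in each library as a percent of miRNA reads (left) and per 1000 spike-in reads (right); points are libraries and bars the mean of 2. On the left HCT116 AA (0.807% and 0.926%) lies among HCT116 WT (0.757% and 0.980%), while on the right the 3 forms of each line separate.

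miR-320b, miR-320c and miR-320d were also set against miR-320a within each library. For every 100 miR-320a reads of the same library there were 4.98 to 7.95 miR-320b reads, 1.14 to 2.00 miR-320c reads and 0.521 to 0.915 miR-320d reads over the 12 libraries. Such a ratio does not depend on the scaling. The ratio of the rarest tested name, miR-320d, was lower than with WT in each comparison in which the family was called lower. It was 0.618 ± 0.136 with ΔdsRBD and 0.779 ± 0.0291 with WT in HCT116 (SD, n = 2 each). In HEK293T it was 0.681 ± 0.109 with ΔdsRBD, 0.608 ± 0.103 with AA and 0.880 ± 0.0454 with WT. In these 3 comparisons the groups did not overlap, with log2 differences of the ratio of -0.35, -0.38 and -0.54. These sizes rested on single libraries, with -0.58 to -0.12 in HCT116 ΔdsRBD, -0.54 to -0.21 in HEK293T ΔdsRBD and -0.72 to -0.37 in HEK293T AA when 1 library was left out. The lower size came without replicate 1 of ΔdsRBD in each line and without replicate 2 of AA. In HCT116 AA the ratio was 0.830 ± 0.120, which overlapped WT. Between the WT groups of the 2 lines, with no change of DICER form, the miR-320d ratio did not overlap either (0.880 in HEK293T, 0.779 in HCT116). The miR-320b ratios overlapped between each altered form and WT in both lines, and those of miR-320c did so except in HEK293T AA, where the ratio was 1.41 ± 0.0458 against 1.60 ± 0.107 with WT. The exact permutation p of a ratio cannot go below 0.333 in this design, 21 ratio comparisons were made, and the smallest Benjamini-Hochberg value over them was 0.824. Overlap was also lacking between AA and ΔdsRBD for miR-320b and miR-320d in HCT116 (log2 differences of the ratio 0.37 and 0.44). The same held for miR-320c in HEK293T (-0.18). All ratio comparisons not named here as lacking overlap did overlap. Groups without overlap give that p of 0.333, so a share of 0.333 of comparisons would lack overlap without any difference. The miR-320d ratios rest on 22 to 354 reads per library. miR-320e, which was not among the ratios compared, was at 0.113 and 0.0606 reads per 100 miR-320a reads with ΔdsRBD and at 0.0138 and 0.00958 with WT in HEK293T, without overlap, on 3 to 6 reads per library.

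**Figure D4:**
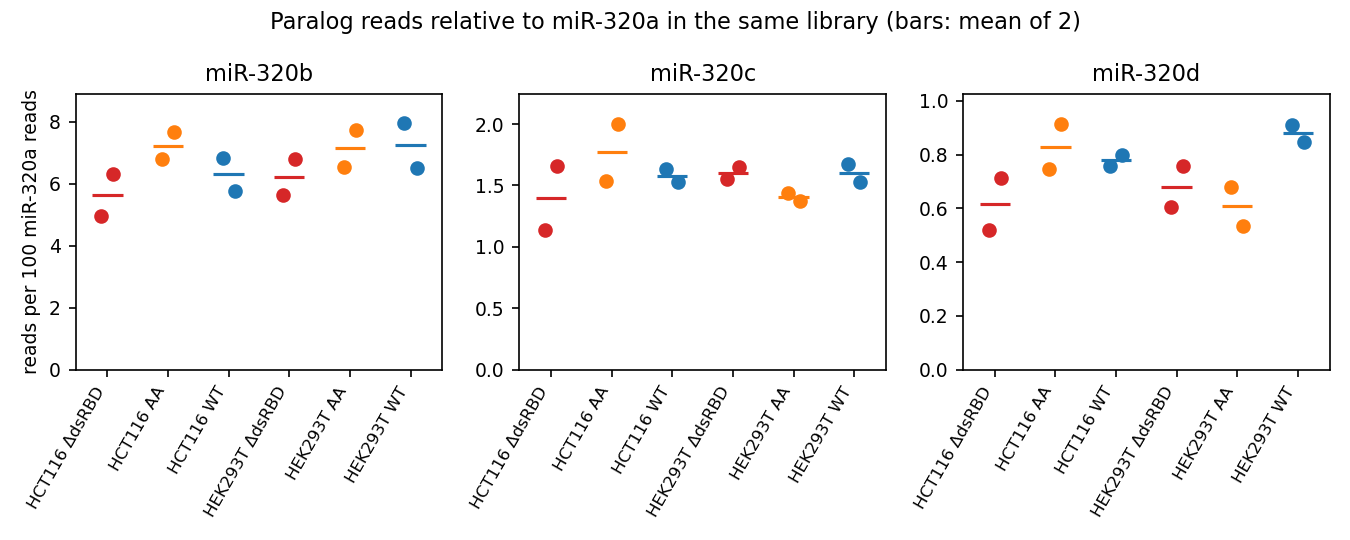
Reads of miR-320b, miR-320c and miR-320d per 100 miR-320a reads of the same library, by group; points are libraries, bars the mean of 2, and all axes start at 0. The miR-320d values of HCT116 ΔdsRBD (0.521 and 0.714), HEK293T ΔdsRBD (0.604 and 0.758) and HEK293T AA (0.681 and 0.536) lie below those of WT in the same line.

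Other miRNAs known to bypass DROSHA gave other values. miR-484, whose precursor is also capped at the start of transcription, fell in all 4 comparisons with WT. It averaged 30.1 ± 4.09 CPM with ΔdsRBD, 72.6 ± 1.05 CPM with AA and 1218 ± 188 CPM with WT in HCT116 (SD, n = 2 each). In HEK293T it averaged 98.2 ± 2.86 CPM with ΔdsRBD, 29.4 ± 6.10 CPM with AA and 2198 ± 518 CPM with WT. Its edgeR log2 fold changes over WT were -5.36 ± 0.20 (SE) with ΔdsRBD and -4.07 ± 0.17 with AA in HCT116, and -4.48 ± 0.24 and -6.19 ± 0.26 in HEK293T, all called. With AA it had the lowest log2 fold change of all 626 names in HEK293T and the second lowest of 795 in HCT116. In HEK293T miR-320a was not called between AA and ΔdsRBD with TMM (0.06, 95% interval from -0.41 to 0.52). With spike-in size factors the summed family was called higher with AA there (1.04, edgeR adjusted p = 0.0032). With TMM miR-484 was lower with AA than with ΔdsRBD in HEK293T (-1.71 ± 0.25). In HCT116 it was higher with AA (1.29 ± 0.20). miR-484 and miR-320a were not tested against each other.

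Mirtrons have hairpins freed by splicing instead of DROSHA. Of the 30 names listed here as mirtrons in HCT116, 21 were tested. How each of these names is made was not checked. With ΔdsRBD 8 of them were called lower, against 34.1% of all names, and 2 higher, against 28.1%, with a median log2 fold change of 0.15, against -0.01 for all names. With AA 6 were called lower, against 6.16% of all names, and 0 higher, with a median of -0.61, against -0.03 for all names. In HEK293T 6 of 27 were tested. With ΔdsRBD 0 were called lower and 1 higher, against 39.6% and 35.9% of all names, with a median of -0.20, against -0.07. With AA 2 were called lower, against 15.2%, and 0 higher, with a median of -1.04, against -0.11. The mirtron miR-877-5p had log2 fold changes of 0.15 with ΔdsRBD and -0.66 with AA in HCT116, neither called, and of 0.01 with ΔdsRBD and -1.02 with AA in HEK293T, the last called lower by edgeR (adjusted p = 0.011). Its partner strand miR-877-3p was called against WT in HEK293T with ΔdsRBD only (1.52, adjusted p = 3.8e-04). miR-451a, which is cut by DROSHA and Argonaute 2 and does not need DICER, was called higher with ΔdsRBD, by a log2 fold change of 1.19 ± 0.19 (SE) in HCT116, where 28.1% of names were called higher, and of 2.22 ± 0.23 in HEK293T, where 35.9% were. With AA it was at 0.11 and -0.13, neither called. Since TMM values are relative to the typical miRNA, these rises hold on that scale.

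**Figure D5:**
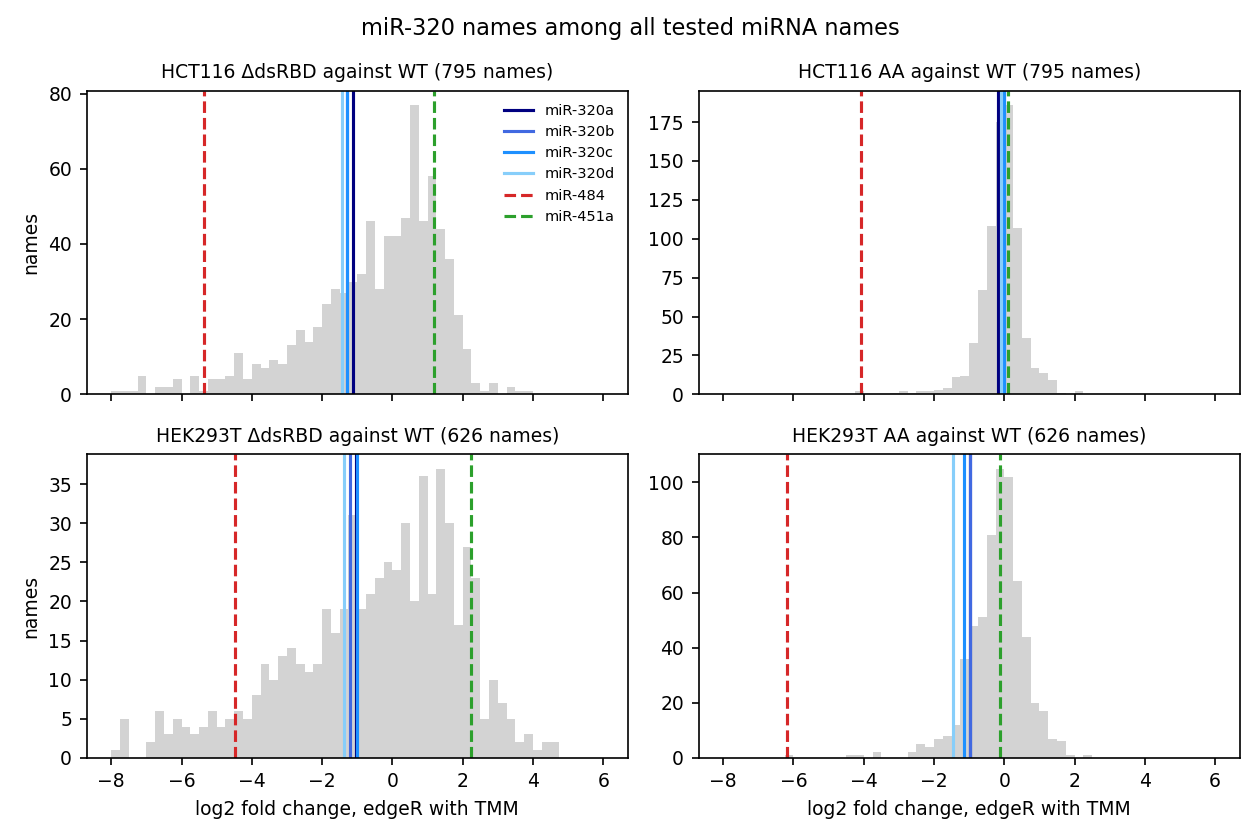
Distribution of the log2 fold changes of all names tested in the 4 comparisons with WT (edgeR with TMM; values beyond -8 drawn at -8), with lines for the miR-320 names, miR-484 and miR-451a. The miR-320 names lie in the lower part of the spread with ΔdsRBD, at its centre with AA in HCT116 (-0.19 to 0.00) and in its lower tail with AA in HEK293T (-1.47 to -0.97), with miR-484 far below them in each panel.

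The names whose levels ran most like miR-320a across the 12 libraries were, apart from its own family, miR-193b-3p, miR-744-5p, miR-219a-5p, miR-940 and miR-424-5p. Likeness was the root mean square difference of centred log2 CPM over 12 libraries, among 273 names of at least 100 CPM on average. It was 0.39 for miR-193b-3p, 0.40 for miR-744-5p, 0.41 for miR-219a-5p, 0.47 for miR-940 and 0.49 for miR-424-5p. The family's own names were closer, at 0.18 for miR-320c, 0.19 for miR-320b and 0.25 for miR-320d. Since they were chosen for running like miR-320a in these libraries, their fall with ΔdsRBD was largely set by the choice. All 5 were called lower in both lines, where 34.1% and 39.6% of all names were, at log2 fold changes of -1.91 to -0.62 in HCT116 and -1.62 to -0.76 in HEK293T. With AA in HEK293T miR-744-5p was the only one of the 5 called lower (-1.76 ± 0.18, SE, edgeR adjusted p = 1.0e-04). With AA in HCT116, where miR-320a was not called, miR-744-5p (-0.90 ± 0.13, adjusted p = 0.0023) and miR-193b-3p (-0.80 ± 0.20, adjusted p = 0.033) were called lower.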

How the data were processed

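Small RNA from 12 libraries in 6 groups was analysed from raw counts, 1 table of read counts per library, as deposited by the authors. The submitters' processing notes name cutadapt, BWA and bedtools, without versions, as well as hg38 and mm10. What each build was used for, the miRNA annotation and the handling of reads that match several names were not given in the sources used here. Spike-in reads entered neither library sizes nor tests. In R 4.3.3, names passing filterByExpr (minimum count 10, by group) were TMM-scaled and tested with edgeR 4.0.16 (quasi-likelihood F test, two-sided). Tests ran over the 6 libraries of a line, or over all 12 for names listed in both lines. Each of the 9 comparisons had Benjamini-Hochberg adjustment over all its names at 0.05. A prior count of 2 entered only the log2 CPM used for likeness to miR-320a and for the check of replicate pairing. The family sum replaced the 5 names by 1 row of summed reads in the same fit. SE is the size of the log2 fold change divided by the square root of F, with 3 residual degrees of freedom per line and 6 over both. The edgeR script was tested on simulated data. DESeq2 1.42.0 and other scalings, filters and left-out libraries were alternatives. Hairpins were folded with ViennaRNA 2.7.2, and figures drawn with matplotlib 3.10.9 in Python 3.11.15. Libraries of 1 group differed by more than sampling noise (chi-square per degree of freedom 12.6 to 98.9), so none was counted as a duplicate deposit, which leaves unknown whether they are repeats of 1 culture. The named miRNAs were all names of the family, the 5 names nearest to miR-320a, miR-484, miR-877 and miR-451a. Members, lists and tests were chosen with earlier results of these data known, and miR-4429 was added from its seed.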

Additional observations from a re-analysis of the deposited data

How the results depend on the processing

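The falls with ΔdsRBD in both lines and the excess of AA over ΔdsRBD in HCT116 kept direction and call in every alternative run for the family sum and its 4 tested names. With ΔdsRBD the sum ran from -2.92 (spike-in size factors) to -0.62 (library totals) in HCT116 and from -2.50 (spike-in size factors) to -0.63 (upper-quartile factors) in HEK293T. For HCT116 AA against WT, spike-in size factors gave -0.76 (adjusted p = 0.023) and spike-in totals -0.60 (0.040) for the sum, and 272 and 186 called names against 59, upper-quartile factors gave 34, and single libraries left out gave 10 (AA replicate 1) to 73, with 23 without AA replicate 2. miR-320b there was -0.57 with spike-in size factors, -0.41 with spike-in totals and -0.0025 with a mean count of at least 50, and miR-320c was 0.016 with RLE and with DESeq2, 0.15 with library totals, 0.12 with upper-quartile factors and 0.0038 with no filter. miR-320d was 0.089 and 0.054 with library totals and upper-quartile factors. Leaving out single libraries gave -0.23 to 0.27 for miR-320b, -0.34 to 0.24 for miR-320c and -0.36 to 0.14 for miR-320d. For HEK293T AA against WT the sum was -0.54 with upper-quartile factors (0.094), and -1.23 to -0.65 with single libraries left out (all calls lost without AA replicate 2), with 292 called names under spike-in totals and 54 (AA replicate 2) to 136 with libraries left out, 88 without WT replicate 1, against 134. For HEK293T AA against ΔdsRBD the sum was -0.10 with library totals, 1.04 (0.0032) with spike-in size factors and 0.77 (0.019) with spike-in totals, and miR-320a was -0.11 with library totals. miR-320c and miR-320d there were 0.86 and 0.90 with spike-in size factors, 0.59 and 0.64 with spike-in totals, 0.079 and 0.12 with no filter, 0.0036 and 0.041 with only the groups compared, and -0.18 to 0.20 and -0.32 to 0.37 with libraries left out. For HEK293T against HCT116 with WT the sum was 0.51 with upper-quartile factors (0.021), -1.60 and -1.64 with spike-in size factors and totals, -0.048 with only the groups compared and -0.38 to 0.39 with libraries left out. miR-320a, b, c and d were -1.61, -1.43, -1.60 and -1.44 with spike-in size factors and -1.65, -1.48, -1.65 and -1.48 with totals. miR-320a and miR-320c were -0.0045 and -0.0011 with a mean count of at least 50, which left 367 called names against 618, and -0.058 each with only the groups compared. Leaving out libraries gave -0.40 to 0.38, -0.081 to 0.42, -0.32 to 0.32 and -0.17 to 0.51 for a to d. The line difference of the ΔdsRBD effect was -0.31 for the sum with library totals and -0.31, -0.33, -0.15 and -0.37 for a to d, and the sum was 0.13 to 0.90 with libraries left out. The line difference of the AA effect was -1.03 (0.012) with library totals and -1.09 (0.048) with spike-in totals for the sum, with 78 and 50 called names against 33, and -1.02 to -0.27 with libraries left out. On spike-in size factors the log2 difference per spike-in read was -0.76 for AA against WT and 2.15 for AA against ΔdsRBD in HCT116. The cause of these changes was not tested. Where leaving out a library left a group with 1, that library was assumed to vary like the other groups. Deviations of libraries with equal replicate numbers correlated weakly between groups (-0.104 to 0.147). With 2 libraries per group this cannot settle whether libraries were paired, which the labels do not say. With the replicate block the sum was -1.15 (HCT116 ΔdsRBD), -0.18 (HCT116 AA), -1.09 (HEK293T ΔdsRBD) and -0.94 (HEK293T AA) against WT. No call of the sum changed, and miR-320b in HCT116 AA was -0.0036. Depth limited miR-320e and the ratios of miR-320d.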
